A study of Mus musculus with 30 samples.

Results

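The genes described here are 35 mouse genes for the proton pump, the membrane and the enzymes of the lysosome, with the cathepsin proteases left out. They were taken from a list of gene symbols, and the counts of each gene's transcripts were summed. The rule uses no measured value, but the list was drawn up with earlier results of these data known. All 35 were found among the 25899 genes with any count, and all 35 were among the 14346 genes tested. They comprise 16 genes of the vacuolar proton pump (V-ATPase), 5 genes of the lysosomal membrane and 14 genes of hydrolases and their cofactors. Microglia, which are the macrophages that live in the brain, were taken as primary cells from postnatal day 21 C57BL/6 mice that were either Lrrk2-/- (KO) or wild type (WT), and 30 libraries of total RNA depleted of ribosomal RNA were sequenced. The groups were KO with α-synuclein fibrils (n = 5), KO with lipopolysaccharide (LPS, n = 4), KO control (n = 6), WT with fibrils (n = 4), WT with LPS (n = 6) and WT control (n = 5). The study asked how loss of Lrrk2, a kinase linked to Parkinson's disease, bears on the response of microglia to fibrils and to LPS, a bacterial ligand of Toll-like receptor 4. The labels give neither doses, times nor sex, and they do not say how the Lrrk2-/- allele was made.

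The lysosome breaks down what a microglial cell has engulfed, and α-synuclein aggregates taken up by the cell are among its cargo. The V-ATPase acidifies its lumen: the peripheral V1 sector hydrolyses ATP, and the V0 sector in the membrane carries protons across. Lysosomal hydrolases act at that low pH, LAMP proteins line the membrane, and genes of all these kinds are known targets of the transcription factor TFEB, which binds E-box motifs near their start sites.

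E-box letters were present near the start of some of these genes, and 4 promoter stretches are shown because 2 of the genes stand out in the fibril results (Atp6v0b and Lipa), Atp6v0d1 is the widely expressed form of a subunit whose other form is described below, and Lamp1 held the most matches. Each stretch covers 100 bases before the start and the first 10 transcribed bases, 5′ to 3′, in RefSeq sequence of GRCm38.p6. Capitals mark the E-box CACGTG, or its extended form TCACGTGA where that was present.
Lamp1: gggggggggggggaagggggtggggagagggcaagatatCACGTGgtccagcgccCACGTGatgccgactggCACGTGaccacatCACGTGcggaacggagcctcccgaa
Atp6v0b: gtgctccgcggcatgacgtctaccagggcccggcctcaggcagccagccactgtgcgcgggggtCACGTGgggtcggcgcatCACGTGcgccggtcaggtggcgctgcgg
Atp6v0d1: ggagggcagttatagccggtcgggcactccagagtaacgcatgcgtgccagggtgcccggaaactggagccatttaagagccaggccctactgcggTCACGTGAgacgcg
Lipa: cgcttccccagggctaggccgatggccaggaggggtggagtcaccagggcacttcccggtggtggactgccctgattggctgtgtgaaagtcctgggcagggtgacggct
These are chr8:13159061-13159170 on the plus strand for Lamp1, chr4:117887320-117887429 on the minus strand for Atp6v0b, chr8:105566055-105566164 on the minus strand for Atp6v0d1 and chr19:34527465-34527574 on the minus strand for Lipa. Lamp1 held 4 E-boxes, Atp6v0b held 2, Atp6v0d1 held 1, and the letters CACGTG were not in the Lipa window.

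Promoter windows of 300 bases (250 before the start and 50 after it) were matched for 28 of the 35 genes. CACGTG, which reads the same on both strands, was present in 9 of those 28 genes (32.1%), against 8.09% of 27025 mouse genes with such windows. The 9 were 4 of 11 V-ATPase genes (Atp6v0b, Atp6v0d1, Atp6v0e and Atp6v1a) and 5 of 17 others (Lamp1, Mcoln1, Glb1, Gaa and Lgmn). TCACGTGA, which contains CACGTG, was present in 4 of the 28 genes (14.3%), against 1.12% of all genes. The CLEAR palindrome, a longer form built around the same letters, was in none of the 28, against 0.37% of all genes. These letters describe the windows and were not tested for function.

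The 30 libraries held 8936310 to 35677005 counts assigned to genes, with a median of 20432234. Lrrk2, the gene targeted in KO, was at most 4.68 CPM (a gene's counts relative to the library total after TMM scaling) in any KO library, and at least 6.87 CPM in any WT library. With fibrils it averaged 1.30 ± 0.45 CPM in KO (SD, n = 5) and 7.95 ± 1.11 CPM in WT (n = 4; exact permutation test, two-sided, p = 0.0159, the smallest p that the design allows for this test). All 12 microglial markers were detected in every group, and their summed level was 5170.4 to 7956 CPM over the libraries. Markers of astrocytes, oligodendrocytes and fibroblasts (36 genes) were low, but uneven. Their sum was 197 to 573 CPM in KO with fibrils, 179 to 677 CPM in KO with LPS, 206 to 1151 CPM in KO control, 128 to 141 CPM in WT with fibrils, 151 to 603 CPM in WT with LPS and 149 to 557 CPM in WT control. The lowest sums of these markers were those of the WT fibril libraries. In that group 4 of the 36 (Gjb6, Gpc5, Mog and Mobp) were at 0 in every library. Markers of border macrophages (9 genes) held more. In KO their sum was 1060 to 1243 CPM with fibrils, 1186 to 1276 CPM with LPS and 1044 to 1484 CPM in control. In WT it was 1373 to 1415 CPM with fibrils, 1325 to 1780 CPM with LPS and 1232 to 1594 CPM in control. With fibrils and with LPS, every KO library was below every WT library. These 9 genes are not among the 36, and their part in the results was not tested. An earlier analysis of these data listed 7 libraries as standing apart by RNA composition, total count or markers: KO control replicates 1, 4 and 6, KO fibril replicate 5, WT control replicate 6 and WT LPS replicates 1 and 6. In cultures measured in bulk, fewer cells of a type and less RNA per cell cannot be told apart. The labels do not say whether replicates were separate cultures or animals, so p-values measure the spread between these libraries alone, and that spread may be technical.

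The summed CPM of the 35 genes was also read as a share of the library total after TMM scaling, which is not the share of raw counts. In KO this share was 1.49% to 2.02% with fibrils, 1.91% to 2.54% with LPS and 1.66% to 2.11% in control. In WT it was 2.36% to 2.47% with fibrils, 1.73% to 2.62% with LPS and 1.65% to 2.65% in control. The WT fibril libraries lay above every KO fibril library. They were also closest together, with an SD of the summed CPM of 487, against 1821 to 3870 in the other groups. The labels do not say why, and the cause was not tested. The fit gave each gene 1 estimate of spread for all groups. On GRCm38 (GENCODE M21), the genes plotted by library below are Atp6v1h on chromosome 1 (5070018 to 5162529, plus strand), Atp6v0b on chromosome 4 (117884326 to 117887333, minus strand), Atp6v0d2 on chromosome 4 (19876841 to 19922605, minus strand), Lipa on chromosome 19 (34492318 to 34527474, minus strand), Psap on chromosome 10 (60277627 to 60302597, plus strand) and Grn on chromosome 11 (102430315 to 102437048, plus strand). Levels of different genes were compared as CPM per kilobase of transcript, averaged over the 6 group means.

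Hydrolases and cofactors spanned the widest range. Psap, whose product is cut into the saposins that help enzymes degrade sphingolipids, was highest at 1769 CPM per kb. It was followed by Lgmn (926 CPM per kb), the asparagine-specific protease legumain, and by Lipa (663 CPM per kb), the lysosomal acid lipase that frees cholesterol from its esters. Smpd1, acid sphingomyelinase, was lowest of all 35 genes at 10.1 CPM per kb. Among membrane genes, Lamp1 was highest (653 CPM per kb) and Mcoln1, the calcium channel TRPML1, was lowest (19.1 CPM per kb). Lamp2, the other major LAMP protein and the receptor of chaperone-mediated autophagy in one splice form, was at 283 CPM per kb. In the V0 sector, Atp6v0c, the proteolipid of the proton-carrying ring, was highest at 428 CPM per kb and Atp6v0d2 was lowest at 20.04 CPM per kb. Atp6v0d1, the widely expressed form of the same subunit d, was at 119 CPM per kb. In the V1 sector, Atp6v1g1, a stalk subunit, was highest (297 CPM per kb) and Atp6v1d, the central rotor subunit, was lowest (26.7 CPM per kb). The accessory genes Atp6ap1 and Atp6ap2, whose products take part in assembling the pump, were at 195 and 181 CPM per kb.

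**Figure D1:**
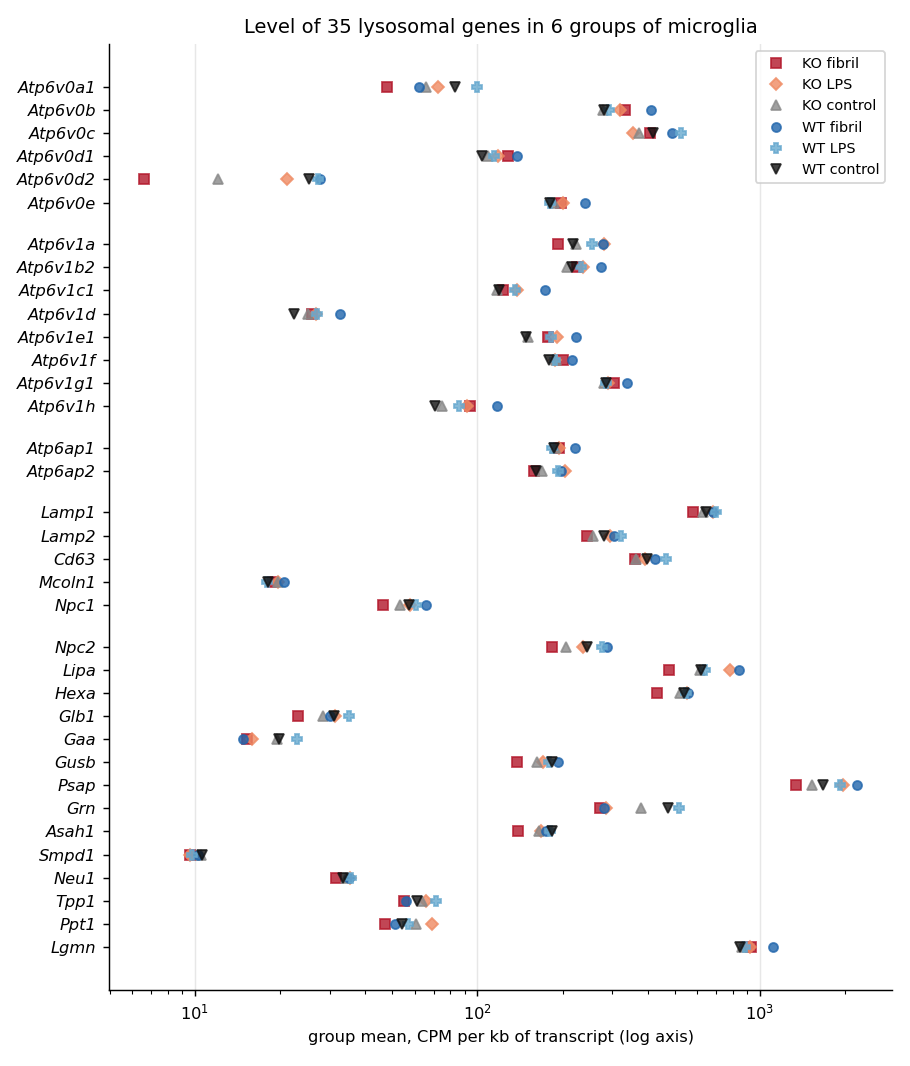
Group mean level of each of the 35 genes in CPM per kb of transcript (log axis), with 1 symbol per group, ordered by role (V0, V1, accessory, membrane, hydrolases and cofactors). Psap averages 1769 CPM per kb and Smpd1 10.1 CPM per kb over the groups, and the spread between group means is widest for Atp6v0d2.

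The highest group mean exceeded the lowest by 4.17-fold for Atp6v0d2, by 2.09-fold for Atp6v0a1 and by 1.92-fold for Grn, and by 1.11-fold to 1.77-fold for the other 32 genes. For 24 of the 35 genes a single transcript held at least 90% of the gene's counts. Lamp2 was an exception, with 75.9% of its counts on Lamp2-202 and 22.3% on Lamp2-201. Of the genes named below, Atp6v0b, Atp6v1e1, Atp6v1h, Grn, Hexa, Lamp1, Npc1 and Ppt1 share exon bases with a gene on the opposite strand, Glb1 shares 165 exon bases with Tmppe on the same strand, and the sources used here do not state whether counting used strand, so the values of these genes are uncertain to that extent.

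With fibrils, WT microglia on average held higher RNA of most V-ATPase genes than WT controls. In the fit of all libraries, the called genes of this list were all from the pump. Of the 35 genes 12 rose and none fell (edgeR quasi-likelihood test, adjusted p under 0.05, 4 against 5 libraries), and all 12 belong to the 16 V-ATPase genes. Over all genes tested, 29.4% were called, 13.8% higher and 15.6% lower. The median log2 fold change was 0.34 over the V-ATPase genes, 0.12 over the membrane genes and 0.00 over the hydrolases and cofactors, against -0.05 over all genes.

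The V1 gene Atp6v1h, the subunit H that regulates coupling of the pump, held 242, 243, 246 and 229.9 CPM in WT with fibrils, against 139.9, 129, 127, 137 and 191 CPM in WT control. The groups did not overlap, and control replicate 6 at 191 CPM stood closest to the fibril libraries. Atp6v1h rose by 0.73 ± 0.13 on the log2 scale (SE; edgeR adjusted p = 0.000255). Atp6v0b, the other proteolipid of the ring, held 386, 388, 416 and 394 CPM with fibrils, against 263, 259, 228, 280.3 and 314 CPM in control. It rose by 0.56 ± 0.10 (edgeR adjusted p = 0.000135), again without overlap. Atp6v1e1, a stalk subunit of V1, held 284, 301, 295 and 294 CPM with fibrils, against 193, 168, 177, 190.2 and 245 CPM in control, and rose by 0.59 ± 0.13 (edgeR adjusted p = 0.00107).

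Of the 8 V1 genes 7 rose in all. Beside Atp6v1h and Atp6v1e1 these included the rotor subunit Atp6v1d (0.53 ± 0.13, edgeR adjusted p = 0.00269) and Atp6v1b2, the B subunit of the catalytic head (0.34 ± 0.12), with Atp6v1c1, Atp6v1f and Atp6v1g1 between 0.25 and 0.53. Atp6v1a, the catalytic subunit itself, had 0.35 ± 0.18 and was not called (edgeR adjusted p = 0.136). Of the 6 V0 genes 3 rose: Atp6v0b, Atp6v0d1 (0.42 ± 0.11) and the small subunit e gene Atp6v0e (0.41 ± 0.15). Atp6v0d2 had 0.12 ± 0.48 and Atp6v0a1, the a subunit that links the sectors, had -0.43 ± 0.20, neither called. The accessory genes both rose, Atp6ap2 by 0.30 ± 0.10 and Atp6ap1 by 0.25 ± 0.09. Outside the pump, Lamp1 (0.09 ± 0.09), Lamp2 (0.12 ± 0.12), Lipa (0.45 ± 0.22), Psap (0.39 ± 0.22) and Grn (-0.76 ± 0.31, edgeR adjusted p = 0.0663) were not called.

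These calls moved with the scaling, with the control libraries and with markers of other cells. Scaled by library size alone, which set the median of all genes at -0.25, the calls were 4 higher and 5 lower. Of astrocyte markers tested 9 of 10 fell with fibrils in WT, of fibroblast markers 8 of 11 and of oligodendrocyte markers 3 of 12. With the mean log2 CPM of the 36 markers as a covariate, an alternative chosen after seeing the data, 5 of the 35 genes were called, 3 higher (Atp6v0b 0.43 ± 0.10, Atp6v1h 0.52 ± 0.13 and Atp6v1e1 0.35 ± 0.12) and 2 lower (Grn and Glb1, β-galactosidase). The summed CPM of the 16 V-ATPase genes was 5982 to 6173 in WT with fibrils, against 4252 to 4770.5 in WT control replicates 1, 2, 3 and 5 and 6353 in control replicate 6. The marker score was -1.32 to -1.04 with fibrils, against -0.89 in control replicate 6 and 0.88 to 2.47 in the other controls. Without 7 libraries that stand apart, replicate 6 among them, 19 genes were higher and 2 lower. Those 19 outnumber the 16 V-ATPase genes, so the higher genes were then not all from the pump. The count fell to 5 or 6 without any 1 of KO LPS replicate 3 (5), WT control replicates 1 (6), 2 (6), 3 (5) or 5 (5), or WT fibril replicates 2, 3 or 4 (6 each). Atp6v0b, Atp6v1h and Atp6v1e1 were called in every alternative run, and Atp6v1d and Atp6v0d1 with each library left out in turn. The other 7 calls ended without at least 1 library: the 8 named or WT fibril replicate 1, for Atp6v1g1 also WT LPS replicates 2, 3 or 4, and for Atp6v1f any 1 of 23 libraries.

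**Figure D2:**
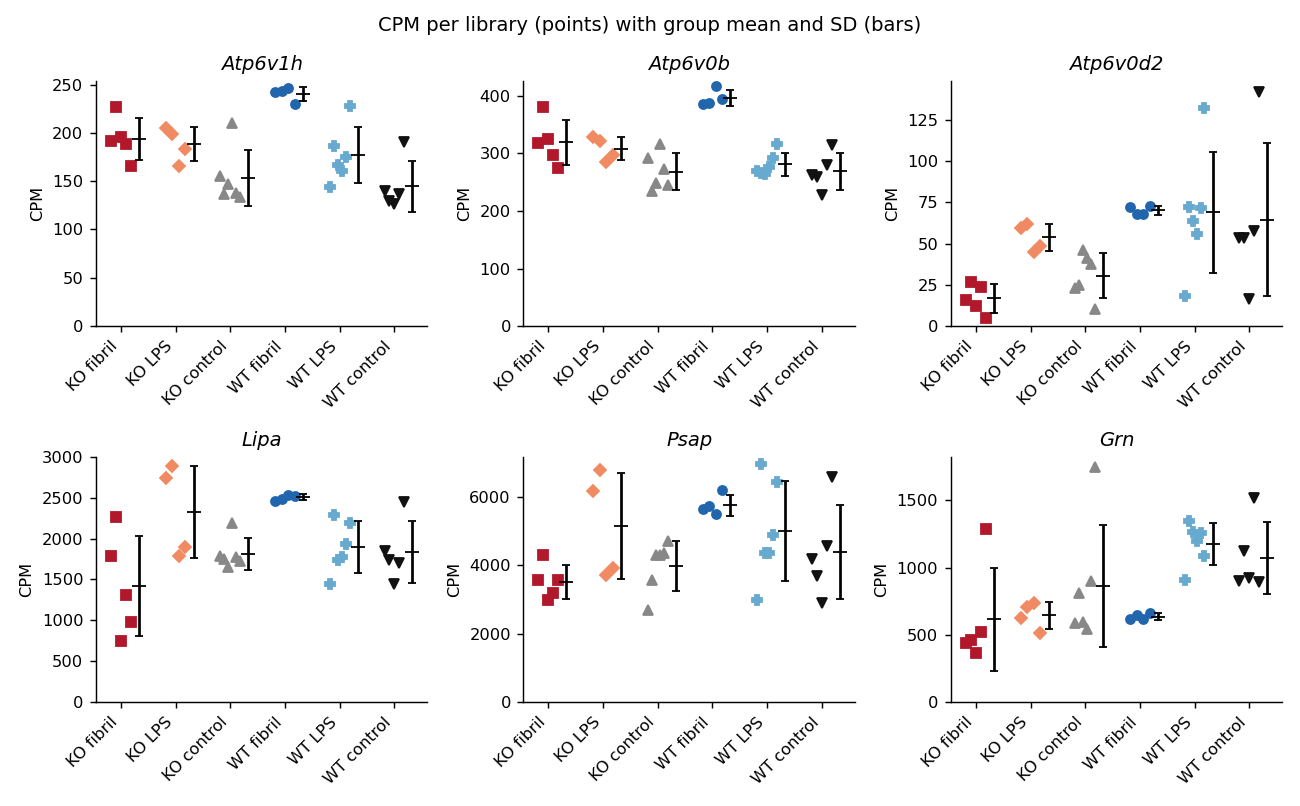
CPM in each library (symbols) with group mean and SD (bars) for 6 genes, groups from left to right KO fibril, KO LPS, KO control, WT fibril, WT LPS and WT control. Atp6v1h sits between 229.9 and 246 CPM in WT with fibrils, above every WT control library, and Atp6v0d2 stays at or under 26.8 CPM in KO with fibrils, below every WT fibril library.

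**Figure D3:**
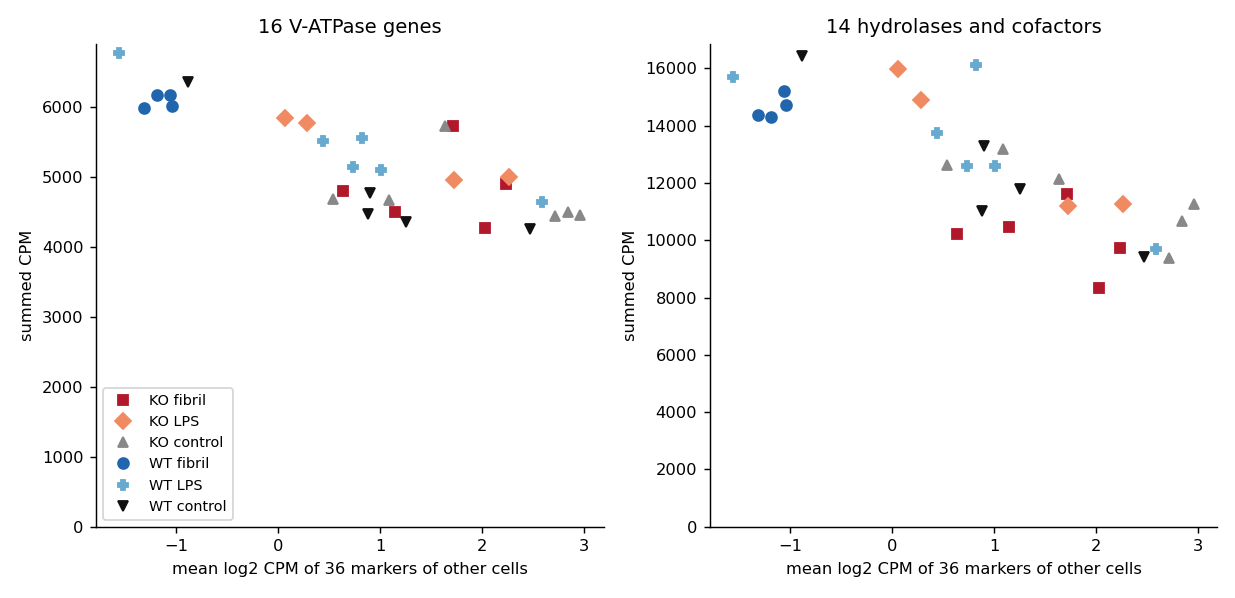
Summed CPM of the 16 V-ATPase genes (left) and of the 14 hydrolases and cofactors (right) in each library against the mean log2 CPM of 36 markers of astrocytes, oligodendrocytes and fibroblasts. The 4 WT fibril libraries, WT control replicate 6 and WT LPS replicate 6 lie at marker scores of -0.89 or lower, with V-ATPase sums of 5982 CPM or more.

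The plot of summed levels against the marker score sets all 30 libraries side by side. WT LPS replicate 6, with the lowest score of all (-1.56), had the highest V-ATPase sum (6769.7 CPM), and WT control replicate 6 the second (6353 CPM). This order rests on the TMM scaling, in which a smaller factor raises a library's CPM. The factors were 0.827 and 0.949 in these 2 libraries, against 1.13 in KO control replicate 4 (5722 CPM, score 1.64). KO libraries had scores of 0.06 to 2.97, so no KO library reached the scores of the WT fibril group. The part of the other cells in these results beyond the covariate fit was not tested.

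In KO microglia few of the 35 genes were called with fibrils, with 2 pump genes higher and 3 enzymes lower. Against KO control 2 of the 35 genes rose and 3 fell (edgeR, 5 against 6 libraries), and 23.7% of all genes were called, 12.2% higher and 11.5% lower. In each direction the share called was thus smaller among the 35 genes than among all genes. The median log2 fold change was -0.12 over the 35 genes and -0.04 over all genes. Atp6v1h held 192, 226, 195, 188 and 165 CPM with fibrils, against a lowest of 133, a median of 142 and a highest of 209.9 CPM in KO control, and rose by 0.34 ± 0.12 (edgeR adjusted p = 0.0436). Atp6v0b rose by 0.25 ± 0.09 (edgeR adjusted p = 0.0379). For both genes the groups overlapped.

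The 3 genes that fell with fibrils in KO code for enzymes. Ppt1, which removes fatty acids from proteins, held 94.2, 123, 98.2, 136 and 103 CPM with fibrils, against a lowest of 121, a median of 142 and a highest of 175 CPM in KO control (-0.37 ± 0.10, edgeR adjusted p = 0.0101). Hexa, the α subunit of β-hexosaminidase, had -0.27 ± 0.09 (edgeR adjusted p = 0.0208). Asah1, acid ceramidase, held 374, 414, 346, 342 and 345 CPM with fibrils, against a lowest of 404, a median of 429 and a highest of 483 CPM in KO control (-0.25 ± 0.07, edgeR adjusted p = 0.00788). Atp6v0d2 (-0.86 ± 0.45), Atp6v0d1 (0.24 ± 0.10), Lamp1 (-0.12 ± 0.08), Lamp2 (-0.07 ± 0.11) and Lipa (-0.36 ± 0.20) were not called.

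Markers of other cells were more alike between these KO groups: no astrocyte or fibroblast marker and 1 of 12 oligodendrocyte markers was called. Scaled by library size alone, the split was 0 higher and 6 lower, and a model of only these 2 groups called none. Without the 7 libraries that stand apart 6 genes were higher and 7 lower. The count was 3 without any 1 of KO control replicates 2, 3, 5 or 6 or KO fibril replicate 1, 2 without KO fibril replicate 3 and 8 without KO control replicate 4. The calls of Asah1 and Ppt1 held with each library left out. Those of Hexa (3 libraries: KO control 5 and KO fibril 3 or 5), of Atp6v0b (7 libraries: KO control 2, 3, 5 or 6 and KO fibril 1, 2 or 3) and of Atp6v1h (13 libraries of the KO control, KO fibril and WT fibril groups) each ended without any 1 of those libraries.

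**Figure D4:**
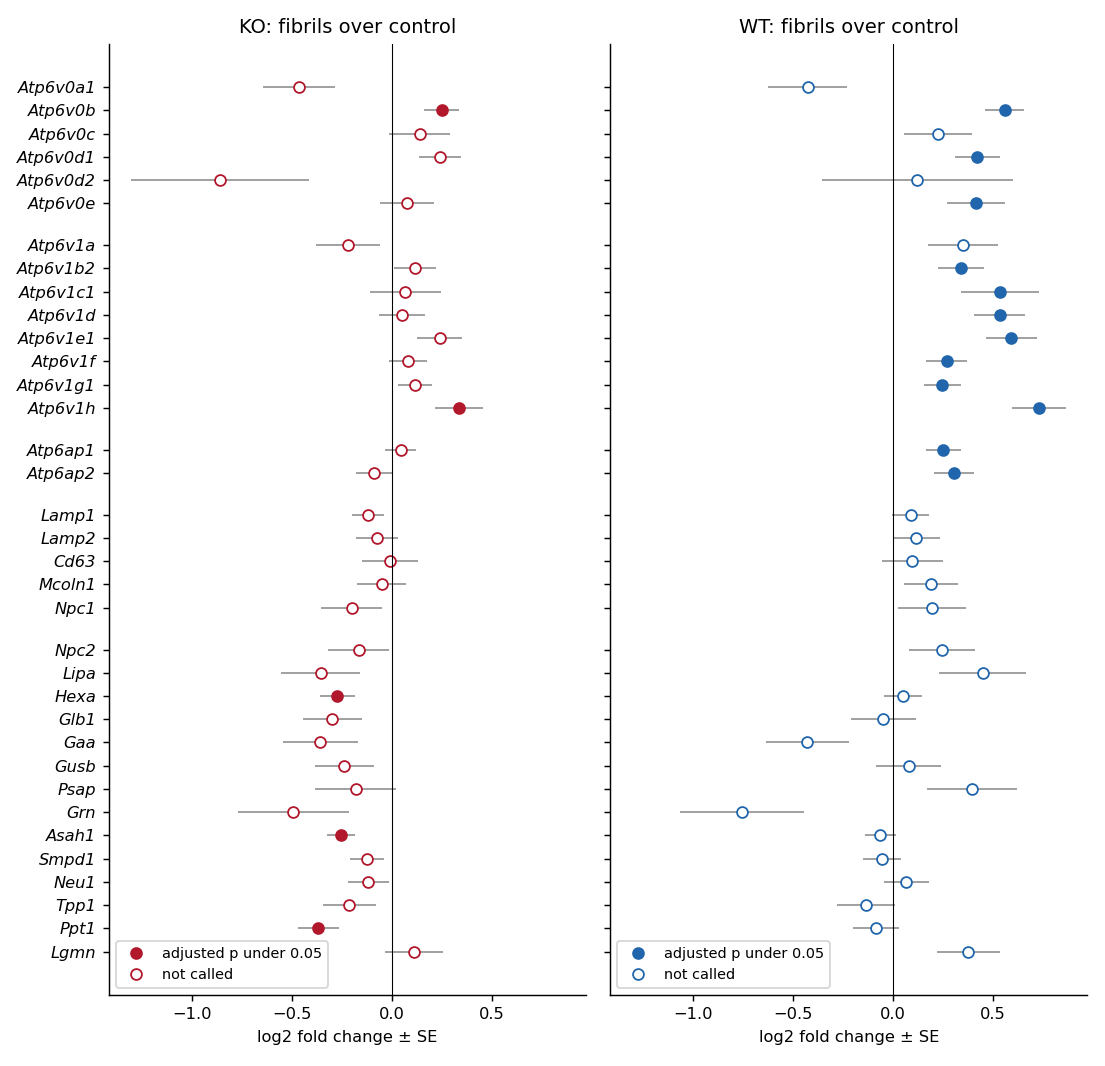
Log2 fold change ± SE of each of the 35 genes with fibrils over control in KO (left) and WT (right). Filled symbols mark adjusted p under 0.05. In WT all 12 filled symbols are V-ATPase genes and lie to the right of 0, and in KO 2 lie to the right and 3 to the left.

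Whether the response to fibrils differed between the genotypes was tested directly, as the KO response minus the WT response. No gene of the 35 and none of the 14346 genes was called (0% called; edgeR), although 8 of the 35 and 1667 of all genes had an unadjusted p under 0.05. DESeq2 called 67 genes and limma-voom none, and neither called any of the 35. The difference was below 0 for 33 of the 35 genes, with a median of -0.25, against 0.02 over all genes. The smallest p-values were those of Atp6ap2 (-0.39 ± 0.14, edgeR adjusted p = 0.327) and Atp6v1d (-0.48 ± 0.17, edgeR adjusted p = 0.328). Lipa had -0.80 ± 0.30, Psap -0.58 ± 0.30 and Atp6v0d2 -0.98 ± 0.65. A difference between the responses was therefore not shown for any of these genes.

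Set side by side with fibrils, KO libraries held less RNA of the pump's Atp6v0d2 and of several hydrolases than WT libraries. Markers of other cells also differed between these libraries, as given below. Of the 35 genes 8 fell and none rose (edgeR, 5 KO against 4 WT libraries), and 8.94% of all genes were called, 5.27% higher and 3.67% lower. The log2 fold change was below 0 for 34 of the 35 genes, with a median of -0.31, against 0.01 over all genes. The fibril libraries used here are the same as in the comparisons with control.

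Atp6v0d2, the form of subunit d known from osteoclasts and macrophages, showed the widest gap. It held 16.1, 26.8, 12.1, 24.0 and 5.15 CPM in KO with fibrils, against 71.9, 68.0, 67.9 and 73.1 CPM in WT with fibrils (-2.06 ± 0.49, edgeR adjusted p = 0.0128). Every KO library was below every WT library. In control, KO had a lowest of 10.3, a median of 31.3 and a highest of 46.5 CPM, and WT held 53.4, 53.7, 16.5, 57.5 and 142 CPM, a wider spread than in WT with fibrils. Atp6v0d1 had -0.11 ± 0.11 between the genotypes with fibrils and was not called.

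Of the 14 hydrolases and cofactors 5 fell. Lipa held 1784, 2271, 742, 1314 and 982 CPM in KO with fibrils, against 2467, 2492, 2542 and 2529.9 CPM in WT (-0.82 ± 0.22, edgeR adjusted p = 0.0214). All KO libraries were lower, and they spread widely while the WT libraries were close together. Psap held 3573, 4294, 2975, 3186 and 3576 CPM in KO, against 5640.2, 5734, 5495 and 6205 CPM in WT (-0.71 ± 0.22, edgeR adjusted p = 0.0458). Npc2, the lumenal protein that hands cholesterol to NPC1, held 514, 617, 482, 659 and 763 CPM in KO, against 914, 995, 917 and 973 CPM in WT (-0.65 ± 0.17, edgeR adjusted p = 0.0188). Hexa had -0.37 ± 0.09 (edgeR adjusted p = 0.0179) and Asah1 -0.34 ± 0.08 (edgeR adjusted p = 0.00975). The pump genes Atp6ap2 (-0.32 ± 0.10) and Atp6v0b (-0.31 ± 0.10) also fell. None of the 5 membrane genes was called, with -0.24 ± 0.09 for Lamp1 and -0.31 ± 0.12 for Lamp2, nor was Atp6v1h (-0.31 ± 0.13).

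Markers of other cells differed between the same libraries. Of astrocyte markers 8 of 10 rose in KO with fibrils over WT with fibrils, of fibroblast markers 8 of 11, of oligodendrocyte markers 3 of 12 and of neuron markers 3 of 4, and the marker scores were 0.64 to 2.24 in KO and -1.32 to -1.04 in WT, without overlap. With the score as a covariate none of the 35 genes was called and the median difference was -0.02, and 0.38% of all genes were called. Atp6v0d2 was then at -0.89 ± 0.53 and Lipa at -0.43 ± 0.26, and Atp6v0d1 at 0.16 ± 0.12. Since the score separates these groups, genotype and marker level cannot be told apart within them. Without the 7 libraries that stand apart 21 genes were lower. The count was 5 without any 1 of KO LPS replicate 3, KO fibril replicate 1 or WT control replicate 5, 3 without KO fibril replicate 3 or WT fibril replicates 1 or 2, 4 without WT fibril replicate 3 and 2 without WT fibril replicate 4. Atp6v0d2 and Asah1 were called with each library left out, Hexa ended without WT fibril replicates 1 or 4, Npc2 without KO fibril replicate 3 or WT fibril replicates 2 or 4, and Lipa without KO fibril replicate 3 or any 1 WT fibril library. Atp6v0b (10 libraries), Atp6ap2 (14) and Psap (16) ended without any 1 of more libraries, all 4 WT fibril libraries and KO fibril replicates 1 and 3 among them.

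**Figure D5:**
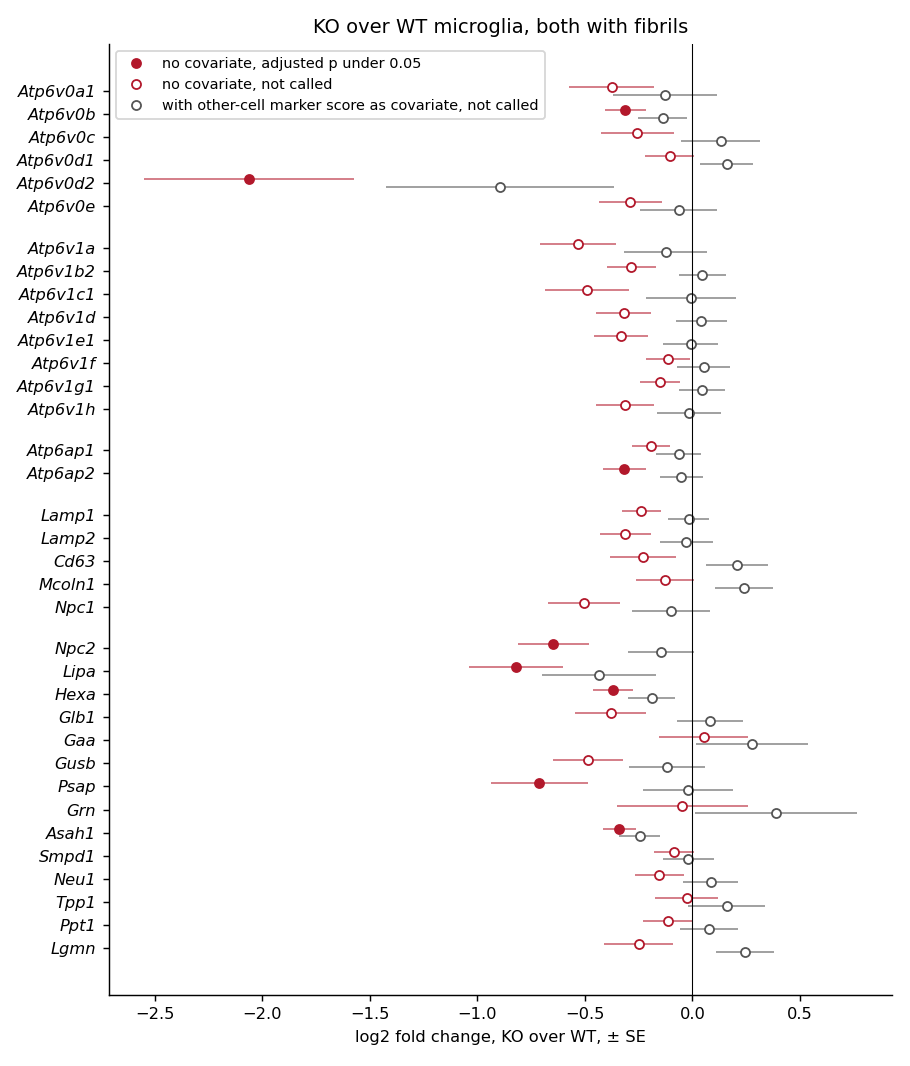
Log2 fold change ± SE of KO over WT, both with fibrils, for each of the 35 genes, without (red) and with (grey) a covariate for the 36 other-cell markers. Filled symbols mark adjusted p under 0.05. The 8 filled symbols lie to the left of 0, from -2.06 for Atp6v0d2 to -0.31 for Atp6v0b, and no grey symbol is filled.

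Without fibrils no gene of the 35 passed the test between KO and WT. In control cultures none of the 35 genes was called (edgeR, 6 against 5 libraries; 2 had an unadjusted p under 0.05, and DESeq2 and limma-voom also called none), and 0.321% of all genes were (0.153% higher and 0.167% lower). The median difference was -0.02. The smallest p-values were those of Atp6v0d2 (-1.08 ± 0.43, edgeR adjusted p = 0.561) and Asah1 (-0.15 ± 0.07, edgeR adjusted p = 0.663). Atp6v0d2 averaged 30.6 ± 13.6 CPM in KO control (SD, n = 6) and 64.6 ± 46.3 CPM in WT control (n = 5), and the groups overlapped.

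With LPS, too, no gene of the 35 was called between KO and WT (edgeR, 4 against 6 libraries; 5 had an unadjusted p under 0.05, limma-voom called none and DESeq2 called 2), against 1.73% of all genes (0.474% higher and 1.25% lower). Grn, which codes for progranulin, a secreted and lysosomal protein lost in a form of frontotemporal dementia, held 622, 705, 739 and 512 CPM in KO with LPS, against a lowest of 910.0, a median of 1227 and a highest of 1349.9 CPM in WT with LPS (-0.87 ± 0.30, edgeR adjusted p = 0.126). Atp6v0c held 428, 521, 410.3 and 339.8 CPM in KO, against a lowest of 522, a median of 600.0 and a highest of 839.9 CPM in WT (-0.56 ± 0.17, edgeR adjusted p = 0.0746). For both genes every KO library was below every WT library, and these 2 are the genes that DESeq2 called. A model of only these 2 groups called 3 genes, and 1 was called without KO fibril replicate 5, as without the 7 libraries that stand apart.

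Few of these genes were called with LPS, while Tnf, a cytokine gene induced by it, rose by 4.11 ± 0.22 in KO and by 4.32 ± 0.23 in WT. In KO none of the 35 was called (edgeR, 4 against 6 libraries; 4 had an unadjusted p under 0.05, limma-voom called none and DESeq2 called 2), against 13.7% of all genes (6.36% higher and 7.35% lower). The smallest p-values in KO were those of Atp6v1e1 (0.35 ± 0.12, edgeR adjusted p = 0.0561) and Atp6ap2 (0.27 ± 0.10, edgeR adjusted p = 0.0602). The KO count was 3 without KO control replicate 4, 2 without WT control replicate 6 and 1 without any 1 of KO control replicate 5, KO LPS replicate 3, KO fibril replicates 3 or 5, WT control replicate 2 or WT LPS replicate 6.

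In WT, Atp6ap2, the prorenin receptor and accessory subunit, was the 1 gene of 35 called with LPS (edgeR, 6 against 5 libraries), and 15.1% of all genes were called, 7.10% higher and 8.03% lower. It had a lowest of 389, a median of 453 and a highest of 472 CPM with LPS, against 369, 305, 344, 392 and 449 CPM in control (0.27 ± 0.09, edgeR adjusted p = 0.0474). The groups overlapped, and the call ended without any 1 of 21 of the 30 libraries, among them every WT fibril and KO LPS library. The count was 5 without WT control replicate 6, 2 without KO control replicate 4 and 7, all higher, without the 7 libraries that stand apart. In KO those 7 left 3 higher and 1 lower. The median over the 35 genes was 0.11 in KO and 0.12 in WT, against -0.04 and -0.02 over all genes. Scaled by library size alone, the calls were 1 lower in KO and 4 lower in WT. The LPS response itself did not differ detectably between the genotypes: no gene of the 35 and none of all genes was called (0% called; edgeR, DESeq2 and limma-voom), and none of the 35 had an unadjusted p under 0.05. Gaa, acid α-glucosidase (-0.52 ± 0.27), and Atp6v0c (-0.39 ± 0.22; edgeR adjusted p = 0.992 for both) had the smallest p-values.

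Fibrils were also set directly against LPS, with the same libraries. In KO 8 of the 35 genes were lower with fibrils than with LPS and none was higher (edgeR, 5 against 4 libraries; 26.5% of all genes called, 13.8% higher and 12.7% lower). Ppt1 held 94.2, 123, 98.2, 136 and 103 CPM with fibrils, against 185, 179.7, 142 and 146 CPM with LPS (-0.56 ± 0.11, edgeR adjusted p = 0.000559), without overlap. Atp6v0d2, at most 26.8 CPM with fibrils in KO, held 59.7, 61.7, 45.01 and 48.9 CPM with LPS in KO (-1.67 ± 0.49, edgeR adjusted p = 0.011). Lipa (-0.72 ± 0.22), Hexa (-0.36 ± 0.09), Asah1 (-0.28 ± 0.08), Atp6v0a1 (-0.61 ± 0.20), Atp6v1a (-0.54 ± 0.18) and Atp6ap2 (-0.36 ± 0.10) were the other 6. Lipa lost its call without KO LPS replicates 1 or 2, Atp6v0a1 without KO LPS replicate 3 or KO fibril replicates 3 or 4, and Atp6v1a without KO LPS replicates 1 or 2 or KO fibril replicates 3 or 5. Without the 7 libraries that stand apart 16 genes were lower.

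In WT 5 of the 35 genes were higher with fibrils than with LPS and 3 were lower (edgeR, 4 against 6 libraries; 37.1% of all genes called, 18.1% higher and 18.9% lower). The 5 higher genes were V-ATPase genes: Atp6v0b (0.50 ± 0.09, edgeR adjusted p = 0.000176), Atp6v1h (0.44 ± 0.13), Atp6v0e (0.41 ± 0.14), Atp6ap1 (0.27 ± 0.08) and Atp6v1g1 (0.24 ± 0.09). The lower genes were Atp6v0a1 (-0.69 ± 0.19), Gaa (-0.65 ± 0.20) and Grn. Grn held 615, 643, 616 and 665 CPM with fibrils, below every WT LPS library (lowest 910.0 CPM; -0.89 ± 0.30, edgeR adjusted p = 0.0221). The same markers moved here, with 9 of 10 astrocyte and 9 of 11 fibroblast markers lower with fibrils, and with the marker score as a covariate 1 gene was higher and 6 were lower. The count was 5 without WT fibril replicates 1 or 3, and without the 7 libraries that stand apart 10 genes were higher and 4 lower. Grn lost its call without WT fibril replicates 1, 2 or 3, Atp6v0e without replicates 1, 3 or 4 and Atp6v1g1 without any 1 of 9 libraries, all 4 WT fibril libraries among them.

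Taken over the 9 direct comparisons, 23 of the 35 genes were called at least once and 12 never, and 60.7% of all genes tested were called at least once. The 12 were the 5 membrane genes (Lamp1, Lamp2, Mcoln1, the tetraspanin gene Cd63 and Npc1, whose product exports cholesterol), 6 enzyme genes (Lgmn, Smpd1, Glb1, the β-glucuronidase gene Gusb, Neu1 for a sialidase and Tpp1 for a tripeptidyl peptidase) and Atp6v0c. Atp6v0b and Atp6ap2 were each called in 4 comparisons, which share libraries.

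Other lysosomal genes were read from further lists of 95 genes, of which 89 were tested. With fibrils in KO 8 rose and 19 fell against control, where 12.2% of all genes were called higher and 11.5% lower. In WT 19 rose and 12 fell, against 13.8% and 15.6% of all genes. Acp2, lysosomal acid phosphatase, rose by 0.56 ± 0.08 in KO and by 0.78 ± 0.09 in WT. M6pr, a mannose 6-phosphate receptor that sorts hydrolases to lysosomes, rose by 0.43 ± 0.06 in KO and by 0.51 ± 0.07 in WT. Further called genes of the KO response were Pla2g15, a lysosomal phospholipase (-0.98 ± 0.16), Scarb2, a membrane protein that carries glucocerebrosidase to lysosomes (-0.63 ± 0.10), the V-ATPase assembly gene Vma21 (0.44 ± 0.10) and the transporter gene Slc15a3 (1.29 ± 0.27). In WT the V-ATPase assembly gene Tmem199 rose by 0.58 ± 0.11, Rogdi (-1.21 ± 0.25), the cation channel gene Tpcn1 (-0.87 ± 0.14) and Siae, a sialic acid esterase (-0.41 ± 0.09), fell, and Slc15a4 (0.44 ± 0.10) and Lamtor3 of the Ragulator complex (0.45 ± 0.13) rose. The hydrolases of this list therefore did not all follow those of the 35 genes, of which none rose in either genotype.

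Between KO and WT with fibrils 11 of the 89 fell and none rose, where 3.67% of all genes were called lower and 5.27% higher. They included the hydrolase genes Ggh (-0.52 ± 0.12) and Man2b1 (-0.51 ± 0.13), the glycoprotein gene Creg1 (-0.85 ± 0.23), the transporter genes Mfsd12 (-0.89 ± 0.24) and Slc17a5 (-0.58 ± 0.17), the sorting adaptor Gga2 (-0.56 ± 0.15) and the Rag GTPase Rragc (-0.54 ± 0.15). Each of these 7 calls ended with the marker score as a covariate, and all but that of Ggh ended without at least 1 WT fibril library. With LPS Tpcn1 (-0.76 ± 0.14) was the only gene of the 89 called between KO and WT, and in control none was. LPS against control called 4 higher and 4 lower in KO and 6 higher and 2 lower in WT, while 13.7% of all genes were called in KO and 15.1% in WT. Slc15a3 (1.00 ± 0.27) and Fnip1, a folliculin partner (0.49 ± 0.14), rose in WT with LPS, and Slc15a4 (-0.40 ± 0.09) and the assembly gene Ccdc115 (-0.34 ± 0.10) fell. Igf2r, the other mannose 6-phosphate receptor (0.64 ± 0.18), and Vma21 (0.40 ± 0.11) rose in KO with LPS.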

How the data were processed

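The authors deposited raw whole-number counts per Ensembl transcript for 30 libraries, without normalization, per the values of the file. Per the submitters' processing notes, CASAVA 1.7.1, STAR 2.4.2a and the build mm10 were used. The sources used here do not give the counting program, its strand setting or its annotation. Here, counts were summed to genes with GENCODE M21 (91320 of 94647 transcripts; the 3327 others held 0.779% to 0.891% of a library's counts and were left out). The 14346 genes that passed the edgeR filter for the 6 groups were scaled with TMM (factors 0.827 to 1.14) and tested with edgeR 4.0.16 (quasi-likelihood, 24 residual degrees of freedom; R 4.3.3). Adjusted p-values are Benjamini-Hochberg values over all 14346 genes, called under 0.05. The SE given with an edgeR fold change is the size of that change divided by the square root of its quasi-likelihood F. Transcript lengths for CPM per kb were weighted by transcript counts. Lrrk2 was also tested by exact permutation.

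The members, lists and tests were chosen with earlier results of these data known. Named are the called genes (4 of smallest p per role where more were called), the 2 genes of smallest p where none was called, up to 3 called genes of each further list, the highest and lowest level per role, and the pairs Atp6v0d1 with Atp6v0d2 and Lamp1 with Lamp2. Of the further lists, a selection is given, and 1 gene is not reported here. Alternatives were RLE or library-size scaling, another filter and none, DESeq2 1.42.0, limma-voom (limma 3.58.1), models of only the compared groups, a replicate block and each library left out. Added after seeing the data were the marker score and leaving out 7 libraries (KO control replicates 1, 4 and 6, KO fibril replicate 5, WT control replicate 6 and WT LPS replicates 1 and 6). The fit was also run on simulated counts in which only the WT LPS group was changed. That simulation left out the uneven markers and the libraries that stand apart, so it cannot speak to their effect.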

Additional observations from a re-analysis of the deposited data

Results flagged for a closer look

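In 24 of the 210 sets made by 1 gene and 1 group, the highest or lowest library stood far from the others by Dixon's 95% criterion. Independent sets of normally distributed values meet it in about 5% of cases. These sets share the same 30 libraries and are not independent, so the 24 cannot be weighed against that rate. WT control replicate 6 was the high library in 8 of them: Atp6v0d1 (219 CPM), Atp6v0e (219 CPM), Atp6v1a (1270 CPM), Atp6v1c1 (392 CPM), Atp6v1f (154 CPM), Atp6v1h (191 CPM), Atp6ap1 (458 CPM) and Gusb (691 CPM). KO control replicate 4 was the high library for Atp6v0d1 (239 CPM), Atp6v1a (1289 CPM), Atp6v1c1 (390.4 CPM), Atp6v1h (209.9 CPM), Atp6ap1 (517 CPM) and Lipa (2196 CPM). WT LPS replicate 6 was high for Atp6v0a1 (501 CPM), Atp6v1e1 (311 CPM) and Gusb (638 CPM), and WT LPS replicate 1 was low for Atp6ap2 (389 CPM) and Glb1 (67.7 CPM).

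Progranulin stood apart in 2 KO libraries: Grn was at 1291 CPM in KO fibril replicate 5 and at 1749.6 CPM in KO control replicate 6, the library that was also high for the sialidase Neu1 (125 CPM). Gaa was low in WT control replicate 1 (51.2 CPM), and Asah1 was low in WT fibril replicate 4 (442 CPM). No gene of the 35 passed the test of a difference between the genotypes' responses.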

How the results depend on the processing

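No called result named in the text changed direction under the alternatives run: of 76 called results named in the text, 2692 of 3040 values under the alternatives kept direction and call and 348 lost the call, and of 29 not called, 49 of 1160 values passed the threshold and 10 changed sign. The changes of sign were those with fibrils in WT of Psap (-0.083), Lamp1 (-0.080), Lamp2 (-0.10) and Atp6v0d2 (-0.56) with the marker score as a covariate, of Lamp1 (-0.10), Lamp2 (-0.074) and Atp6v0d2 (-0.025) scaled by library size alone, of Atp6v0d2 without WT control replicate 3 (-0.12; 0.63 without replicate 6), and between KO and WT with fibrils of Atp6v0d1 (0.049 with library size, 0.16 with the score). The cause of the changes below was not tested, except that models of only the compared groups hold fewer samples.

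Of the 35 genes, KO against WT with fibrils called 5 with RLE scaling, 3 with library size, 5 with the CPM filter, 3 without a filter, 5 with limma-voom, 3 with only the compared groups, 16 with the replicate block, 21 without the 7 libraries and 0 with the score. KO against WT with LPS called 3 with only the compared groups, 1 without the 7 and 2 with DESeq2. LPS in WT called 4 with library size, 0 without a filter or with only the compared groups, 2 with DESeq2 or with the block, 7 without the 7 and 3 with the score. LPS in KO called 1 with library size, 2 with DESeq2, 2 with the block and 4 without the 7. Fibrils in WT called 7 with RLE scaling, 5 without a filter, 21 without the 7 and 5 with the score, and 12 with DESeq2, 16 with the block and 14 in a model of the 2 groups alone. Fibrils in KO called 2 without a filter, 13 without the 7, 0 with only the compared groups and 8 with the score. Fibrils against LPS called in WT 14 with library size, 18 with only the compared groups and 14 with the block or without the 7, and in KO 3 with only the compared groups, 13 with the block and 16 without the 7.

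With each library left out in turn, the count ranged from 2 to 11 for KO against WT with fibrils, 0 to 1 with LPS and 0 to 0 in control, 0 to 5 for LPS in WT, 0 to 3 for LPS in KO, 5 to 15 for fibrils in WT, 2 to 8 for fibrils in KO, 5 to 12 for fibrils against LPS in WT and 6 to 10 in KO, and 0 to 0 for both differences of responses. Replicate numbers were taken from the sample titles, which number WT control replicates 5 and 6 otherwise than the descriptions do (4 and 5). Same-numbered libraries were uneven in their correlation of deviations from group means. For LPS in WT it was over 0.1 in 4 of 5 pairs (0.004 to 0.65). The same held for KO against WT in control (-0.04 to 0.49) and fibrils in KO (-0.12 to 0.25). In each other comparison at most 2 pairs were over 0.1 (KO against WT with fibrils, -0.08 to 0.02). Whether the numbers pair the samples cannot be told from these values, so the block is a number only. The effect of depth on these genes was not tested.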
